A study of Mus musculus with 3 samples.

Results

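Distal intergenic peaks are accessible chromatin regions that lie far from any protein-coding gene. The set described here holds the peaks of dopaminergic neurons (DNs) whose centre lay outside every protein-coding gene body and more than 50 kb from every protein-coding transcript start in GENCODE M21, on the autosomes of mm10, without peaks within 1 kb of a lincRNA or antisense transcript start. This rule kept 5643 peaks of the 55326 in the list, or 10.3% (95% exact binomial interval 10.1 to 10.6%) of the 54570 autosomal peaks. Distance was measured from the centre of the peak to the transcript start, and both limits are drawn on the annotation alone.

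The peaks came from single-nucleus ATAC-seq, which marks open chromatin in isolated nuclei through the adaptors that a transposase leaves there. The VTA (ventral tegmental area), a midbrain region rich in DNs, was taken from male C57Bl/6Nl mice aged 7 weeks (replicate 1) and 9 weeks (replicate 2), both of them wild type. The nuclei of the DN cluster, chosen by the authors from gene scores, entered 1 peak list, which gives positions only. The series attaches this list to the sample of replicate 1, and it was read as pooled from both libraries because the methods of the study describe a DN cluster with nuclei of both. From this list, the only file used here, no spread between libraries can be computed, so no p-value is given, and the 95% intervals (exact binomial for shares, exact Poisson for densities) cover counting error only. The depth per peak is unknown from the list, so a region without a peak is one where no peak was called. The series also holds bulk ATAC-seq of mouse embryonic stem cells, which was not analysed here.

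In neurons as in other cells, sequence far from promoters holds enhancers, short elements bound by transcription factors that can act on a gene over long distances, and sites of CTCF, the zinc-finger protein that together with cohesin anchors chromatin loops. Other elements in such regions are promoters of long noncoding RNAs and of transcripts that no annotation holds. Accessibility alone does not tell these kinds apart. Forkhead factors such as *Foxa1* and *Foxa2*, LIM homeobox factors such as *Lmx1a* and *Lmx1b*, and the orphan nuclear receptor *Nr4a2* (Nurr1) establish and maintain midbrain DNs.

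The gene bodies of DN markers and the 2 kb upstream held peaks. *Th*, the rate-limiting enzyme of dopamine synthesis, held 10 peaks, the dopamine transporter gene *Slc6a3* held 3, *Lmx1b* 31, *Foxa2* 6, *Foxa1* 5, *Pitx3* 3 and *Calb1* 2. Of the markers of other cells, *Olig2* and *Sox10* of the oligodendrocyte lineage and *Nanog* and *Pou5f1* of pluripotent cells held 0, *Pdgfra* 2, and *Camk2a* and *Wfs1* of pyramidal neurons 6 and 1. All 7 DN markers held a peak and 4 of the 7 others held none, and of the 21755 coding genes on the autosomes and the X chromosome 65.2% held one, counted the same way. The authors had picked the DN cluster by its gene score for *Th* and checked it with those of *Lmx1b*, *Foxa2*, *Foxa1* and *Slc6a3*, so peaks at these genes are no independent check of the label, and *Pitx3* and *Calb1* are not among the genes they name. *Camk2a*, a marker of other neurons, held more peaks than either. *Foxa2* and *Lmx1b* were the DN markers that were also the nearest coding gene of distal intergenic peaks, with 11 and 7.

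To show what these elements look like, 8 central stretches are printed from GRCm38, the same assembly as mm10, on the plus strand from 5′ to 3′. The first belongs to the peak that lay farthest from a coding start, chr14:91566816-91567315, which was 2319 kb from the start of *Pcdh9*, a protocadherin gene, and 782 kb from the nearest other peak. It had a GC content of 35.6%, and none of the 17 motifs searched lay in the 200 bases shown, so none is in capitals.

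Farthest peak: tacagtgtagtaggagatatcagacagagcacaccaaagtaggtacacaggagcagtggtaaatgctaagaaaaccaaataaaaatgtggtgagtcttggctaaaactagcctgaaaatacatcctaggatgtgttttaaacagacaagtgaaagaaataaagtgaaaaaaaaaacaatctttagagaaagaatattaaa

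The next 3 are the peaks whose match to the CTCF consensus, in capitals, lay nearest to the centre of the peak. They are chr14:71670369-71670868, 729 kb from *Gfra2*, chr14:72293733-72294232, 198 kb from *Gm9195*, and chr2:49358755-49359254, 79.4 kb from *Mbd5*. As the peaks were chosen by this distance and each stretch is centred on its peak, the capitals begin within a few bases of the same place.
CTCF near *Gfra2*: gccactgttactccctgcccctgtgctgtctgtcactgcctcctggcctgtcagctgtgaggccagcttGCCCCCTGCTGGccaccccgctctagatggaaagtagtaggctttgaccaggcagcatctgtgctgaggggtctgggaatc
CTCF near *Gm9195*: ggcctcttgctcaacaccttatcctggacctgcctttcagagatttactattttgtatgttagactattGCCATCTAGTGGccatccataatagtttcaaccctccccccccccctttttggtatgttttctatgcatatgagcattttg
CTCF near *Mbd5*: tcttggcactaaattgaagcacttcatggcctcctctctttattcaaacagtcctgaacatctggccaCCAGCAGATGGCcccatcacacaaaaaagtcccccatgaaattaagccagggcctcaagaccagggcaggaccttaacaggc

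A further 3 carry a forkhead match, TGTTTAC or its reverse complement, in capitals. The first lies in the cluster with the most distal intergenic peaks, in the body of the long noncoding RNA gene *Lncpint*, at chr6:31092705-31093204. The other two are the 2 distal peaks of *Foxa2* with a match, chr2:147942614-147943113 and chr2:147928102-147928601, 103 and 118 kb downstream of the *Foxa2* start.
Forkhead in *Lncpint*: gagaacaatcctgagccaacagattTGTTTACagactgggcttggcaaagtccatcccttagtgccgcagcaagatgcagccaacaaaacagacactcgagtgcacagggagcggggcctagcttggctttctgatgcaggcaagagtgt
Forkhead 103 kb from *Foxa2*: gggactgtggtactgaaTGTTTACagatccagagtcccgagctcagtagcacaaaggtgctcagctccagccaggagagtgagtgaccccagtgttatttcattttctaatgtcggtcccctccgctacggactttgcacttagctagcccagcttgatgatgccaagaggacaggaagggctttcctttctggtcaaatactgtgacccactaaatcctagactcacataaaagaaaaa
Forkhead 118 kb from *Foxa2*: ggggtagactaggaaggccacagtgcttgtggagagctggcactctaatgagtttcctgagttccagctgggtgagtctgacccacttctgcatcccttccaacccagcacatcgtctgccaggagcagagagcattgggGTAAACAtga

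The last stretch belongs to the distal intergenic peak with the highest ratio of observed to expected CpG, 1.24 at a GC content of 61.6%, at chr10:122985185-122985684, 90.1 kb from *Ppm1h*. The capitals mark a match to CCGGAAG, the ETS consensus, which is common at CpG-rich promoters.
CpG-rich peak near *Ppm1h*: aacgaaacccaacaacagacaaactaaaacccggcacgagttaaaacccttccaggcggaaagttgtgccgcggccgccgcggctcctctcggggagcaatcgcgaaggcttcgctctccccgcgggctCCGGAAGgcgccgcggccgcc

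Sequence that meets the rule made up 38.2% of the autosomal sequence without N (916 Mb) and held 10.3% of the autosomal peaks. Its density was 6.16 peaks per Mb (6.00 to 6.32). Intergenic sequence within 50 kb of a coding start and more than 1 kb from it held 18.2 peaks per Mb (17.8 to 18.6), 2.96 times as many, and introns held 22.2 (21.9 to 22.5). Exons away from promoters had 48.4 peaks per Mb and promoters, within 1 kb of a coding start, 277. Distal intergenic sequence therefore had the lowest density of these 5 classes. The 318 distal peaks left out at lincRNA and antisense starts stood at 47.4 per Mb (42.4 to 52.9) of the sequence within 1 kb of those starts, close to the density of exons.

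Each autosome held distal intergenic peaks, from 75 on chromosome 19 to 448 on chromosome 2, with a median of 306. Their density was 6.17 ± 0.896 peaks per Mb (SD over the 19 autosomes). It went from 4.80 on chromosome 19 to 8.01 on chromosome 9 (7.14 to 8.96), with 7.90 on chromosome 2. Density varied less between autosomes than the share of peaks that were distal, which went from 4.43% on chromosome 19 to 16.8% on chromosome 18. The X chromosome, which the rule leaves out, held 77 peaks that would otherwise have qualified, or 0.968 per Mb (0.764 to 1.21), below every autosome. All its peaks together stood at 4.62 per Mb. These are male nuclei with a single X chromosome, and the part of copy number in this value was not tested.

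**Figure D1:**
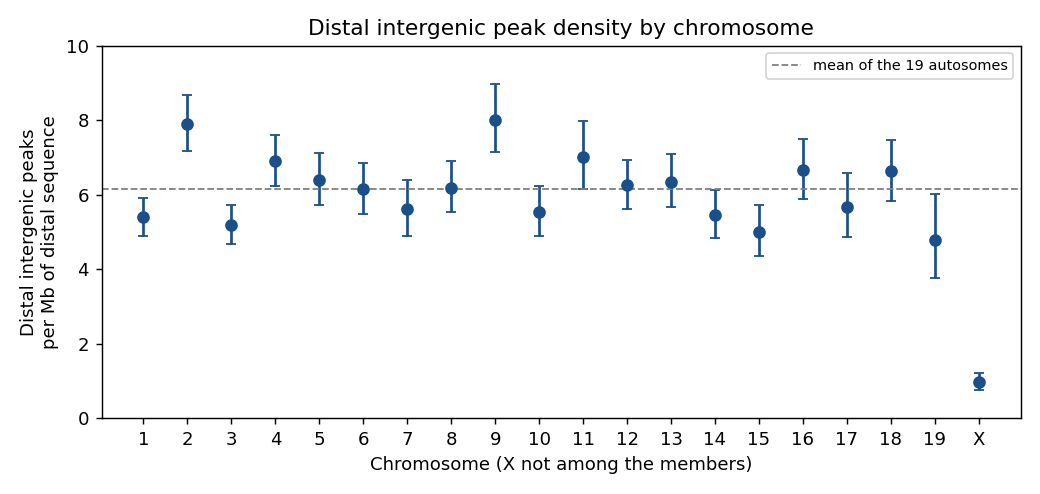
Distal intergenic peaks per Mb of distal sequence on each chromosome, with 95% Poisson intervals as bars and the mean of the 19 autosomes as a dashed line. Autosomes lay between 4.80 and 8.01 peaks per Mb and the X chromosome, which is not part of the set, at 0.968.

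The distance to the nearest coding start had a median of 133 kb (interval of the median 128 to 136 kb) and quartiles of 78.3 and 258 kb. Of the peaks, 449 lay more than 500 kb away and 84 more than 1 Mb. The 3 nearest to the limit on the inside were 50073, 50107 and 50107 bp from the starts of *Mettl8*, *Cyld* and *2010111I01Rik*, and the nearest on the outside were 49965, 49979 and 49988 bp from *Cpeb4*, *Chst14* and *Bod1*. At the other limit, the nearest peaks kept were 1001, 1004 and 1006 bp from a lincRNA or antisense start, next to *Npvf*, *Ier3* and *Maml3*, and the nearest left out were 974, 982 and 990 bp from one, next to *Hif1a*, *Mef2c* and *Tm2d1*. Positions upstream of the nearest start held 52.2% of the set (50.9 to 53.6%). The share of distal sequence that lies upstream was not computed, so no lean to either side can be read from this.

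Beyond the limit, density fell at each step of distance. It was 13.0 peaks per Mb at 50 to 75 kb, 11.0 at 75 to 100 kb, 8.25 at 100 to 200 kb, 5.86 at 200 to 300 kb, 4.58 at 300 to 500 kb, 2.76 at 500 to 750 kb and 1.60 at 750 to 1000 kb, counting peaks at lincRNA and antisense starts. Beyond 1 Mb, 87 peaks stood at 1.17 per Mb (0.941 to 1.45), so that density was 11.0 times as high in the nearest bin as in the farthest. On the near side of the limit it was 17.4 per Mb at 10 to 25 kb and 14.4 at 25 to 50 kb. The sequence itself also changed: its GC content was 42.3% at 50 to 75 kb and 36.9% beyond 1 Mb, and the share marked as repeat 36.8% and 44.1%. Per Mb of sequence not marked as repeat, the density was 20.5 at 50 to 75 kb and 2.10 beyond 1 Mb, a ratio of 9.76.

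**Figure D2:**
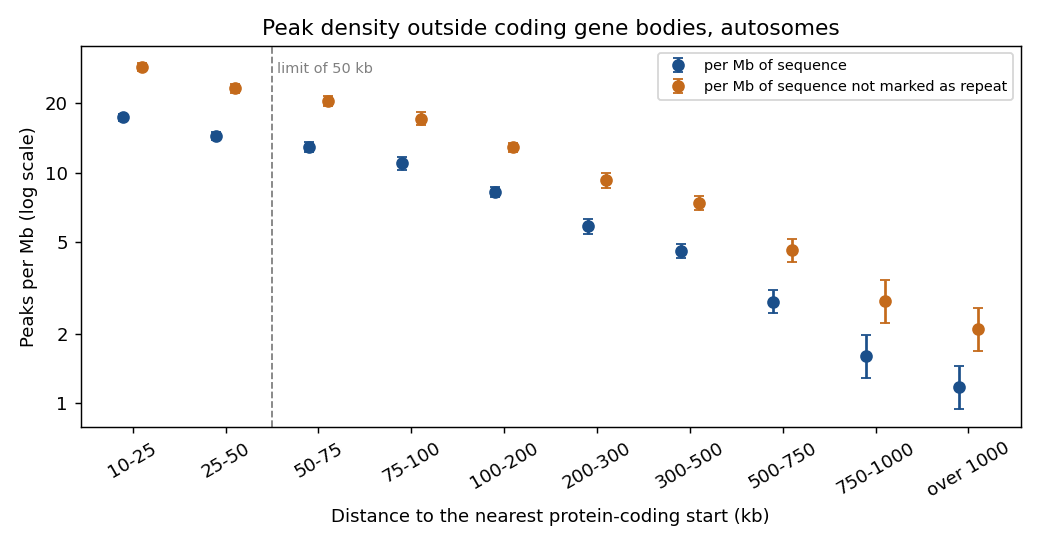
Autosomal peaks outside coding gene bodies per Mb (log axis) against the distance to the nearest protein-coding start, in all sequence and in sequence not marked as repeat, with 95% Poisson intervals. Values fell from 13.0 to 1.17 per Mb of sequence beyond the limit of 50 kb, and from 20.5 to 2.10 per Mb of sequence not marked as repeat.

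Distal intergenic peaks stood apart from each other. Of the set, 39.1% (37.8 to 40.4%) had a neighbour, that is another peak of any class with its centre in the 25-kb window centred on the peak, against 71.4% of near intergenic, 71.8% of intronic and 77.8% of promoter peaks. The median distance to the nearest peak was 22.7 kb (21.3 to 24.0), against 4.53 kb for near intergenic peaks, and 31.6% had no peak within 50 kb, against 4.14%. In 77.7% of cases the nearest peak was itself distal intergenic, and in 5.74% it was a promoter peak. The rule sets part of these contrasts, since members lie more than 50 kb from coding starts and promoter peaks within 1 kb of one. A spacing of this kind also goes with the low density around these peaks, and whether it exceeds what density and the rule give was not tested. Joined to their neighbours in the set, 3576 peaks (63.4%) stood alone, 567 clusters had 2 members, 150 clusters had 3 members and 31 had 4. The remaining 50 clusters had 5 or more and held 359 peaks.

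Runs of sequence that meet the rule, here called blocks and named by the coding genes on both sides, numbered 3332. Peaks per Mb of a block are given per Mb of its sequence that meets the rule, without N and without the 1 kb around lincRNA and antisense starts, which can be less than its length. Of these blocks, 1709 held a distal intergenic peak, or 51.3% of blocks. The 321 blocks with the most held 50% of the set, and the 10 richest 308 peaks, or 5.46%. Longer blocks more often held a peak: 277 of 1283 blocks up to 50 kb held any (21.6%) and 208 of 219 of those above 1 Mb. Per Mb, the order was the other way round, with 17.7 peaks in blocks up to 50 kb and 2.82 in blocks above 1 Mb.

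The block between *Klf14* and *Mkln1* on chromosome 6 held the most. *Klf14* encodes a Krüppel-like transcription factor and *Mkln1* muskelin, a subunit of a ubiquitin ligase. It had 50 peaks in a length of 340 kb, of which 319 kb meet the rule, or 157 per Mb, and 49 of the 50 had a neighbour. Of the peaks, 38 lay in 2 long noncoding RNA genes that lie head to head, 27 in the body of *Lncpint*, a p53-induced lincRNA, and 11 in that of *2210408F21Rik*, and 12 lay outside both. Of the 5 richest clusters, 2 belonged to this block, with 19 peaks in 52.7 kb at chr6:31065499-31118234 and 17 in 68.0 kb at chr6:31136380-31204394. A CTCF match was found in 2 of the 50 and a forkhead match in 4, among them the one printed above. Over all members the shares were 6.18% and 10.8%.

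The imprinted domain between *Rtl1* and *Dio3* on chromosome 12 held 34 peaks, or 61.4 per Mb. *Rtl1*, a retrotransposon-derived gene, and *Dio3*, the deiodinase that inactivates thyroid hormone, are expressed from the paternal chromosome, and the noncoding RNAs between them, such as *Rian* and *Mirg*, from the maternal one. Of the 34 peaks, 31 lay in the first 110 kb of the block, counted from the *Rtl1* side, and 3 beyond. The block holds 45 annotated miRNA genes, which span 65.8 kb, and 13 peaks lay within 1 kb of one. The cluster at chr12:109705967-109727362 held 13 peaks in 21.4 kb, which cover 30.4% of it, and its span includes 25 of the miRNA genes. *Mirg* held 2 peaks. *Rian*, 57.8 kb long, held 1, but it reaches only 11.4 kb into the block, and the rest of it lies outside.

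**Figure D3:**
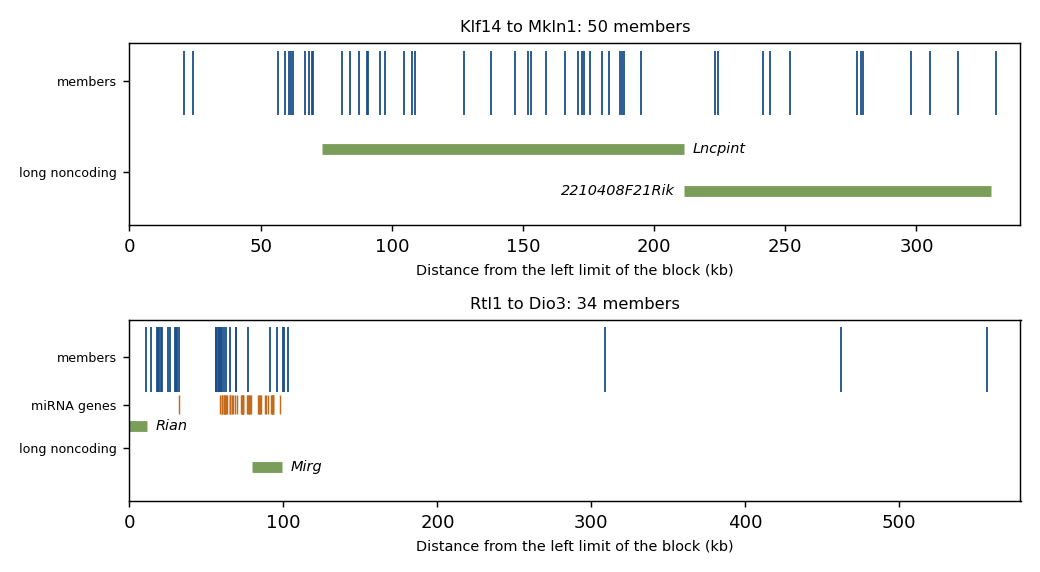
Centres of distal intergenic peaks (blue lines) along the block between *Klf14* and *Mkln1* and the block between *Rtl1* and *Dio3*, in kb from the left limit of each block, with long noncoding RNA genes as green bars and, in the lower panel, miRNA genes as orange lines. In the upper panel 27 of the 50 peaks lie in *Lncpint* and 11 in *2210408F21Rik*, and in the lower panel 31 of 34 lie in the first 110 kb.

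Among the other blocks with the most peaks, 3 lie on chromosome 4. The block between *Kazn*, which encodes a cell-junction protein, and *Prdm2*, a histone methyltransferase gene, held 36 peaks, that between *Nphp4* and *Ajap1* 33, and that between *Matn1* and *Ptpru* 32, at 44.7, 41.0 and 42.0 per Mb. The block between *Ubash3b* and *Sorl1*, a sorting receptor gene, on chromosome 9 held 33, and there the noncoding gene *3110039I08Rik* held 21 and *Gm49317*, which overlaps it, 11. Between *Eipr1* and *Myt1l*, which encodes a zinc-finger factor of neurons, 23 peaks were found. The block between *Rps24* and *Zmiz1* on chromosome 14 held 21. The block between *Celf4* and *Pik3c3* on chromosome 18 came to 23 peaks through its length of 4419 kb, at 5.23 per Mb, and 4 of the 23 had a neighbour.

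A short block of 107 kb between *Cstad* and *1700001O22Rik* on chromosome 2, of which 103 kb meet the rule, held 23 peaks, or 224 per Mb, all of them with a neighbour, at a mean GC content of 58.9%. Of these, 16 formed the cluster at chr2:30686520-30744355 and 9 lay in the lincRNA gene *9330198N18Rik*. A cluster of 17 at chr12:86790078-86824266, between *Lrrc74a* and *Irf2bpl*, had a mean GC content of 53.5%. It had no CTCF match, and over all members 6.18% had one. Among blocks of at least 200 kb, those between *Chst1* and *Syt13* (89.0 per Mb), *Irf2bp2* and *Tomm20* (61.0) and *Mvb12b* and *Pbx3* (57.7) joined *Klf14* to *Mkln1* and *Rtl1* to *Dio3* as the 5 densest. In the last of these, 10 of the 13 peaks lay in the body of the lincRNA gene *C230014O12Rik*.

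At the other end, the longest block without a peak ran for 2675 kb between *Cox7c* and *Edil3* on chromosome 13, followed by 2249 kb between *Ankrd7* and *Kcnd2*, which encodes a potassium channel, 1589 kb between *Ripk2* and *Mmp16*, and 1558 kb between *Pom121l12* and *Vstm2a*. The next, 1531 kb between *Adam6a* and *Zfp386* on chromosome 12, lies in the immunoglobulin heavy chain locus, and 113 of its 137 annotated genes other than coding ones are immune receptor segments. By the rule, the only other peaks that a block can hold are those within 1 kb of a lincRNA or antisense start. None of these was called in the 5 blocks.

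Bodies of noncoding genes cover 11.7% of the distal sequence and held 988 peaks, or 17.5% (16.5 to 18.5%). Long noncoding RNA genes alone held 930 at 9.87 per Mb, sequence without any annotated gene 4655 at 5.75 per Mb, and pseudogenes 33 at 2.89 per Mb. The rule had already removed peaks within 1 kb of lincRNA and antisense starts. Of the members that remained, 358 lay 1 to 5 kb from such a start. In all, 568 noncoding genes held a peak. After *Lncpint* (27) and *3110039I08Rik* (21), the most were in *Mir99ahg* (15), host gene of a miRNA cluster, then in *2210408F21Rik* and *Gm49317* (11 each), *C230014O12Rik* and *9530059O14Rik* (10 each), and *9330198N18Rik*, *Gm49797* and *9530036O11Rik* (9 each).

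Of 4929 coding genes that are nearest to some distal sequence, 2155 were the nearest gene of at least 1 distal intergenic peak, or 43.7% of genes. Being nearest does not show that a peak acts on the gene. The genes with the most were *Rtl1* (33), *Kazn* (29), *Klf14* (28), *Ubash3b* (24), *Ajap1* and *Mkln1* (22 each), *Nphp4* and *Pik3c3* (18 each), *Matn1* (17) and *Eipr1* (15). For gene lists, the count of genes with a peak is read against this 43.7%, and the density against 6.16 per Mb and a median over genes of 0.

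Among transcription factors of midbrain DNs, 5 of the 7 with distal sequence had a distal peak (71.4%, 29.0 to 96.3%), with 30 peaks at 13.7 per Mb (9.24 to 19.5) and a median of 13.3 per Mb over the 7 genes. The median gene of the 7 had 243 kb of distal sequence, against 60.3 kb over all 4929 genes. *Foxa2* had 11, from 60.8 to 262 kb from its start, of which 3 were upstream, 2 had the forkhead match printed above and 1 a CTCF match. For *Lmx1b*, 6 of the 7 peaks lay between 80.5 and 85.8 kb downstream, the smallest distance between neighbours being 0.510 kb, and the other lay 86.8 kb upstream. *Lmx1a* had 5, all 207 to 323 kb downstream, and the engrailed gene *En1* 4, at 52.9 to 360 kb. *Nr4a2* had 3, at 156, 526 and 658 kb, each more than 100 kb from any other peak. *Otx2* and *Sox6* had none in 187 and 243 kb of distal sequence. The list is small, and *Lmx1b* with 43.9 kb of distal sequence reached 160 per Mb, *Foxa2* 26.8, *Lmx1a* 23.8, *En1* 13.3 and *Nr4a2* 3.77. *Foxa2* and *Lmx1b*, with 11 and 7 of the 30 peaks, are among the genes whose gene scores the authors used to check the DN cluster. The density of this list cannot be taken as independent of how the nuclei were chosen, and the part of that choice in it was not tested.

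Larger neuronal and developmental families are given by count, density and the amount of distal sequence per gene, since longer blocks more often held a peak. Differences between the lists were not tested. In families of developmental transcription factors, 69 of 148 genes had one (46.6%, 38.4 to 55.0%) at 4.56 per Mb, with 133 kb of distal sequence at the median gene, led by *Sox11* (14), *Foxa2* (11) and *Sox9* (8). Synaptic adhesion and axon guidance families, such as cadherins, ephrin receptors and semaphorins, had a peak at 64 of 95 genes (67.4%, 57.0 to 76.6%) but a density of 2.30 per Mb (2.01 to 2.64), and the median gene had 604 kb of distal sequence, against 60.3 kb over all genes. There *Cdh26*, *Cdh5* and *Epha4* had 10 each. Of ion channel and transmitter receptor genes, 71 of 115 had one (61.7%, 52.2 to 70.6%) at 5.84 per Mb, with 139 kb at the median gene. The kainate receptor gene *Grik3* and *Kcnj6*, which encodes the GIRK2 channel of DNs, had 9 each and the galanin receptor gene *Galr1* 7.

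Chemosensory receptor genes and clustered families of skin, defence and secretion had few. A distal peak was nearest to 12 of 135 chemosensory receptor genes (8.89%, 4.68 to 15.0%), at 1.78 per Mb (0.948 to 3.04), led by the taste receptor gene *Tas2r119* with 2, with *Olfr1402* and *Olfr1408* at 1. For keratins, defensins, serpins and similar families, it was 5 of 83 genes (6.02%, 1.98 to 13.5%), at 0.829 per Mb (0.304 to 1.81), with *Speer2* at 2 and *Serpinb6e* and *Serpinb8* at 1. These genes lie in arrays, so neighbouring ones are not independent, and the median gene had 21.9 and 27.1 kb of distal sequence. Among ribosomal, proteasome and respiratory chain genes, 20 of 39 had one (51.3%, 34.8 to 67.6%) at 7.36 per Mb, with *Rps24* (11), *Rplp1* (7) and *Atp5g3* (6) first.

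In base composition, the set lay between its surroundings and the other classes. The mean GC content was 46.3% (SD 6.40 over peaks), against 43.3% in flanks, which are windows of 500 bp placed 2 kb away that overlap no peak. It was 49.9% in near intergenic, 49.2% in intronic and 61.6% in promoter peaks. Distal intergenic peaks were above their flanks and below near intergenic peaks in GC on all 19 autosomes. The GC content fell with distance from 48.1% at 50 to 100 kb to 39.2% beyond 1 Mb, and that of flanks from 44.8% to 37.2%. Over 50% of the bases were marked as repeat in 1.10% of the peaks and in 15.3% of the flanks.

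CpG-rich peaks, with a GC content above 50% and an observed to expected CpG ratio above 0.6, numbered 150, or 2.66% (2.25 to 3.11%). The share was 7.44% in near intergenic, 2.05% in intronic and 67.8% in promoter peaks and 0.175% in flanks. Of the 150, 17.3% lay within 5 kb of a lincRNA or antisense start, against 6.04% of the other members, and 47.3% held the GC box GGGCGGG, a letter string that CpG-rich sequence favours, against 4.73%. Besides the one printed near *Ppm1h*, the highest CpG ratios were 1.12 for a peak 66.2 kb from *Mpp7* on chromosome 18 and 1.08 for one 64.1 kb from *Ppara* on chromosome 15, at chr15:85671230-85671729.

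The peaks were checked for sequence that occurs more than once in the genome. At least 90% of the sampled 50-base words were unique in 5578 members (98.8%), and under 50% in 2. No member matched the mitochondrial genome (0 of 5643, which allows up to 0.0653%).

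By the ratio of the share in members to that in flanks, CTCF came first among the motifs with a match in at least 1% of members. The 12-letter consensus, searched on both strands, was found in 349 members, or 6.18% (5.57 to 6.84%), against 0.303% of flanks, 20.4 times as many, and above the flanks on each of the 19 autosomes. With 1 mismatch allowed it was 19.6% of members and 4.08% of flanks, a ratio of 4.80. Over all 55326 peaks the share was 5.25%. In near intergenic peaks it was 11.5%, in intronic 5.71% and in promoter peaks 1.36%. The share over autosomes was 6.42 ± 1.92% (SD, n = 19 autosomes) in distal and 11.5 ± 1.42% in near intergenic peaks, and the distal share was the lower on 18 of 19. Between distal and intronic peaks there was no such order, with the distal share above the intronic on 10 of 19.

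The share with CTCF fell with distance, from 8.52% (7.37 to 9.79%) at 50 to 100 kb to 6.22% at 100 to 200 kb, 4.44% at 200 to 300 kb and 3.00% (1.87 to 4.55%) at 300 to 500 kb. It was 3.01% at 500 to 1000 kb and 2.38% (0.290 to 8.34%) beyond 1 Mb, where 2 of 84 peaks had a match. Peaks with the match had a median distance of 97.2 kb from a coding start and those without it 135 kb. GC content was 46.3% in both, and 36.7% and 39.3% had a neighbour. Within the peaks, 312 of the 353 matches (88.4%) lay within 50 bp of the centre, which holds 20.7% of the possible positions, and the median distance to the centre was 19 bp. The strands were even, with 178 matches on the plus and 175 on the minus strand.

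**Figure D4:**
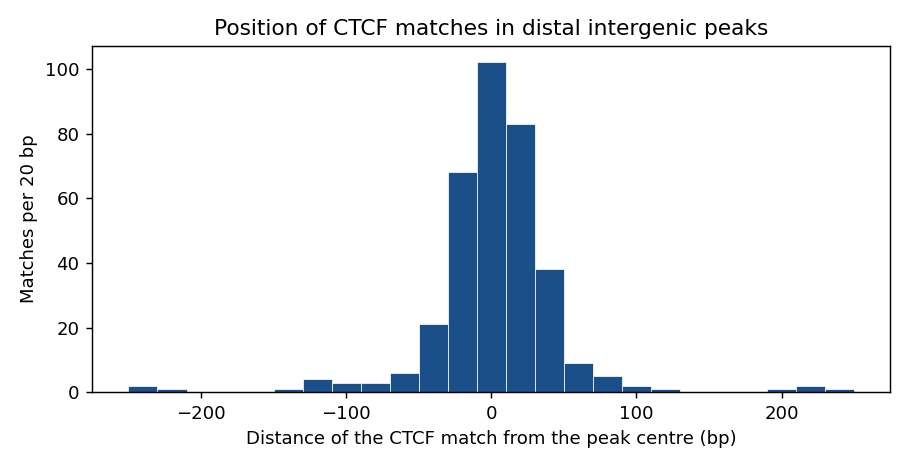
Number of CTCF matches per 20 bp against the distance from the centre of the distal intergenic peak (353 matches in 349 peaks). The tallest bar, 102 matches, is the one around the centre, and 88.4% lie within 50 bp of it.

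Motifs of factors with a role in neurons were also compared with the flanks, on both strands. The E-box CAGCTG was found in 32.1% (30.8 to 33.3%) of members, 19.4% of flanks and 30.9% of all peaks, and it was above the flanks on 19 of 19 autosomes. Near intergenic peaks had it at 31.3% and intronic peaks at 33.4%, and the distal share was above the near intergenic on 10 of 19. The *Neurod* E-box CAGATGG was found in 14.0% of members, 10.6% of flanks and 11.5% of all peaks. It was 13.5% in near intergenic and 14.1% in intronic peaks, and the distal share was above the near intergenic on 11 of 19 autosomes. The CTCF consensus can contain these letters, and 45 of the matches lay inside a CTCF match. Without them the share was 13.3% (12.4 to 14.2%). GTTGCCA, part of the site of RFX factors, was found in 9.78% of members (9.02 to 10.6%), 5.76% of flanks, 9.22% of near intergenic, 8.52% of intronic and 7.90% of all peaks, and was above near intergenic peaks on 10 of 19 autosomes. Next to CTCF and the rare *Egr1* letters GCGTGGGCG (15 matches), RFX was the most centred, with 43.6% of matches within 50 bp of the centre.

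The forkhead letters TGTTTAC were found in 10.8% (10.0 to 11.7%) of members, 7.56% (7.07 to 8.07%) of flanks, 7.73% of near intergenic, 9.38% of intronic and 7.22% of all peaks. They were above the flanks on 18 and above near intergenic peaks on 17 of 19 autosomes. By distance, the share was 9.74% at 50 to 100 kb and 13.4% (10.1 to 17.4%) at 500 to 1000 kb, against 7.19% and 7.28% of the flanks. AAGGTCA, the extended half-site bound by orphan nuclear receptors, was found in 13.9% (13.0 to 14.9%) of members, 9.33% of flanks, 10.9% of near intergenic, 12.4% of intronic and 10.0% of all peaks. Its share was 11.7% (10.3 to 13.1%) at 50 to 100 kb and 20.3% (16.3 to 24.8%) at 500 to 1000 kb, with 10.2% and 7.55% in the flanks. Between these bins the intervals overlapped for the forkhead letters and did not for AAGGTCA. Beyond 1 Mb, with 84 peaks, the shares were 15.5% (8.51 to 25.0%) for the forkhead letters and 14.3% (7.61 to 23.6%) for AAGGTCA. The flanks there had 9.58% and 4.79%.

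The homeobox letters TAATTA and the Sox letters ACAATGG had lower pooled shares in members than in flanks. TAATTA was found in 12.8% of members and 15.5% of flanks, and was above the flanks on 7 of 19 autosomes, although the share was 8.32% in near intergenic peaks and lower there on 19 of 19 autosomes, 9.07% in intronic and 7.27% in all peaks. Within members, 9.00% of TAATTA matches lay within 50 bp of the centre, against 20.4% of positions. TAATCC, of Otx and Pitx factors, was found in 16.5% (15.5 to 17.5%) of members, 17.1% (16.4 to 17.8%) of flanks and 13.6% of all peaks, with overlapping intervals in members and flanks and 16.8% in intronic peaks. ACAATGG was found in 5.79%, 8.23% and 4.81%, and was above the flanks on 2 of 19 autosomes. The AP-1 letters TGANTCA were found in 16.5% (15.6 to 17.5%), 15.1% (14.5 to 15.8%) and 12.3%, so that the intervals of members and flanks overlapped. ATGCAAAT, the POU octamer, stood at 4.84%, 3.82% and 2.62%, above the flanks on 13 of 19 autosomes, and the GC box at 5.87%, 2.46% and 21.9%. The ETS letters were found in 2.68% of members and 1.34% of flanks, MEF2 in 1.36% and 0.883%, and the cAMP response element TGACGTCA in 0.620% (0.432 to 0.862%) and 0.322% (0.224 to 0.447%), while the long NFI site was found in 5 members and in 0 of 10876 flanks. For both of these the intervals of members and flanks overlapped, and members were above the flanks on 10 and 3 of 19 autosomes, and for MEF2 they were above on 12. Over all peaks the share was higher than in members for the ETS letters (7.57%) and the cAMP response element (1.51%) and lower for MEF2 (0.994%), and in near intergenic peaks it was 4.10%, 1.00% and 1.22%. In intronic peaks the shares were 2.62% for ETS, 0.757% for the cAMP response element, 1.35% for MEF2, 5.48% for Sox, 2.94% for the POU octamer and 7.26% for the GC box. Short letter strings depend on base composition, and GC differs between members, flanks and classes as given above.

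**Figure D5:**
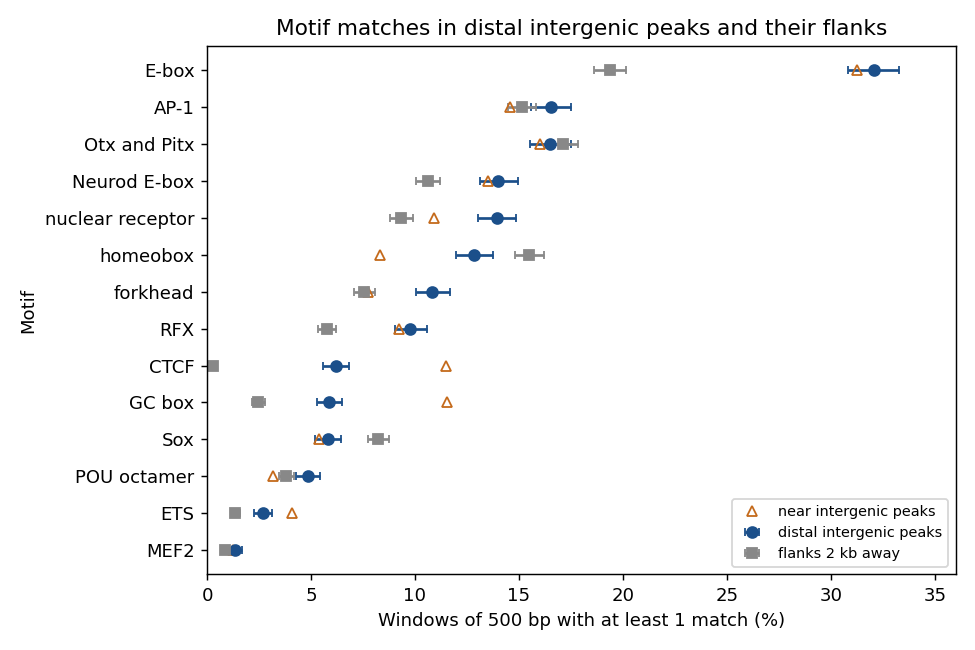
Percent of windows of 500 bp with at least 1 match to each motif in distal intergenic peaks (circles) and flanks 2 kb away (squares), with 95% exact binomial intervals, and in near intergenic peaks (triangles), for the motifs found in at least 1% of distal intergenic peaks. CTCF stands at 6.18% against 0.303% in flanks, and the homeobox TAATTA and Sox letters lie below the flanks.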

How the data were processed

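Nuclei of the VTA from male mice gave 2 single-nucleus ATAC-seq libraries. The authors mapped reads to mm10 with Cell Ranger and used ArchR to filter and cluster nuclei and to call reproducible peaks, after gating doublets out in the sort and removing further ones with ArchR (per the labels and the methods of the study). The deposited list has 3 columns, chromosome, start and end, with no other score. All peaks are 500 bp wide and none overlap. For its later steps the study kept peaks found in a minimum share of nuclei, and whether the deposited list has passed this filter is not given in the sources used here. Starts were read as counted from 0. If they count from 1, starts are off by 1 bp.

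The members and the gene lists were chosen with earlier results of these data known, and the pattern lists were trimmed of unrelated symbols (*Htra* proteases, *Ssx2ip*, *Cstad*, *Prlr*, *Prlh*) after their values were seen. The counts of the midbrain list leave out 1 gene, which is not reported here. Named genes followed a rule of rank (blocks, clusters, genes with the most members, limits). The annotation was GENCODE M21, and bases were read from the RefSeq copy of GRCm38, whose chromosome lengths match mm10. The 17 motifs are short consensus strings. The member rule and motif search were tested on simulated data. Work was done in Python 3.11.15 (scipy 1.17.1, numpy 2.4.6, matplotlib 3.10.9, pandas 2.3.3).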

Additional observations from a re-analysis of the deposited data

How the results depend on the processing

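The 8 main values were recomputed under 14 alternatives, which gave 77 values. Of these, 51 stayed within the interval of the main value (1.5 times for the count, 1 SD over autosomes, 1.16, for GC content) and 26 moved. Under a distance above 25 kb, density was 7.28 peaks per Mb, the median distance 86.8 kb, the share with a neighbour 42.9%, the share in noncoding genes 16.4%, the CTCF share 7.80% and the share of genes with a peak 37.9%. Above 100 kb, there were 3518 peaks at 4.81 per Mb, a median distance of 214 kb, 32.7% with a neighbour, 4.78% with CTCF and 49.1% of genes. With the starts of every transcript of coding genes, density was 5.83 and 37.1% had a neighbour. With no lincRNA or antisense start left out, density was 6.46 and 19.8% lay in noncoding genes, and with 5 kb left out these were 5.93 and 14.9%. Adding the X chromosome gave a density of 5.75 and 41.1% of genes. Neighbours were found for 24.7% within 5 kb and 52.2% within 25 kb. With 1 mismatch, CTCF was found in 19.6% of members and 4.08% of flanks. Without the 10 blocks with the most members, chosen after seeing the data, density was 5.89, 36.9% had a neighbour and 16.4% lay in noncoding genes. Starts counted from 1 and membership by the whole peak moved none of the 8. No paired analysis was possible because the only file used here is 1 list, read as pooled from both libraries. The list has no count per peak, so weak and strong peaks weigh the same, and depth limits what was called in sequence without a peak.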
